A study of Mus musculus with 6 samples.

Results

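The mitochondrial carrier family, solute carrier family 25, was described in RNA from amygdala neurons of mice whose astrocytes had been targeted by CRISPR. Members were all genes in the count files whose symbol is Slc25a followed by a number, which gave 47 of 35976 genes. The choice used the symbol and no measured value. All mice were male C57BL/6J mice injected with viral vectors (AAV) carrying Cas9 under GfaABC1D, a promoter active in astrocytes. In the 3 sgEgfr libraries the guides targeted Egfr, the gene of the epidermal growth factor receptor, and in the 3 sgRosa libraries they targeted the control locus Rosa. Mice of both groups were restrained in tubes on 7 days, then fear conditioned on 1 day and given extinction training on 3 days, so there was no unstressed group. Each library was made from 5 ng of RNA of cells enriched magnetically for neurons, which are not the cells that the promoter targets. The labels give neither the age of the mice nor whether each library came from a separate animal.

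Carriers of this family sit mostly in the inner mitochondrial membrane and exchange nucleotides, phosphate, carboxylic acids, amino acids, cofactors and iron between the cytosol and the matrix. They are encoded in the nucleus, made in the cytosol and imported. In the brain they are known for supplying ATP to the cytosol, for the malate-aspartate shuttle of neurons and for the handling of glutamate.

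Total counts ranged from 2520426 to 4849404 in the sgEgfr libraries and from 2348897 to 10152812 in the sgRosa libraries. Values by library are given in the order of replicates 1, 2 and 3. A floor of 3 counts in a library corresponded to between 0.270 and 1.25 CPM, where CPM is a count relative to the library's total after scaling of the libraries by TMM. This floor covers counting error only. Egfr itself had 6, 18 and 6 counts in the sgEgfr libraries, against 1, 26 and 23 counts in the sgRosa libraries. These counts were low, in libraries enriched for neurons that also held astrocyte markers, so they are no check of the labels. The cells were labelled as neurons, and the summed level of 12 pan-neuronal markers was 3044 to 4756 CPM in sgEgfr and 1959 to 4842 CPM in sgRosa, with none at 0 in any library. All 12 had positive log2 fold changes. Markers of other cells were present as well. The sum of 10 astrocyte markers was 464 to 1648 CPM in sgEgfr and 827 to 1544 CPM in sgRosa. Of these markers 2 had positive and 8 negative log2 fold changes. The sum of 10 oligodendrocyte markers was 22648 to 57947 CPM in sgEgfr and 24623 to 72656 CPM in sgRosa, and 10 of 10 had negative log2 fold changes. Choroid plexus markers stood apart in sgEgfr replicate 1 (8373 CPM) and sgRosa replicate 3 (11410.0 CPM), against 510 to 2444 CPM in the other libraries. Mitochondrially encoded genes took 29.8% of the counts of sgRosa replicate 1 and between 10.3% and 15.7% in the others. In such bulk libraries, fewer cells of a type and less RNA per cell cannot be told apart.

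At issue in the comparison is whether neuronal transcripts of these mice differ when Egfr is targeted in astrocytes. Among the carriers, the member with the smallest p was Slc25a37, which encodes mitoferrin 1, an iron importer of the inner membrane. It was 2.90-fold higher in sgEgfr, with all 3 sgEgfr libraries above all 3 sgRosa libraries, but it did not pass the test over all genes. The other iron importer gene, Slc25a28, averaged 6.15 ± 1.62 CPM in sgEgfr and 5.76 ± 0.387 CPM in sgRosa (SD, n = 3 each). The most abundant carriers, those of ADP/ATP and phosphate that serve ATP synthesis, did not pass either. Their largest difference was that of Slc25a5, at 0.704-fold in sgEgfr. The median standard error of a member's log2 fold change was 0.31, beside 0.34 over all genes tested.

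In the quasi-likelihood test of edgeR, adjusted by Benjamini-Hochberg, 0 of the 38 members tested passed in either direction (smallest adjusted p = 0.781). This was also so of all 13159 genes tested, of which 0% passed as higher and 0% as lower. DESeq2 called 0 members too, but over all genes it called 31 higher (0.236%) and 2 lower (0.0152%), and limma-voom called 0 members and 0% of all genes, whether higher or lower. DESeq2 gave no adjusted p to at least Slc25a13, Slc25a18, Slc25a28, Slc25a35, Slc25a40 and Slc25a42, so it could not call these. Its shares are of all genes tested, with or without an adjusted p. At an unadjusted p under 0.05 there were 3 members (7.89%) by edgeR, beside 6.16% of all genes tested, so the share was near the background. Of these, 1 was higher in sgEgfr (3.23% of all genes tested were) and 2 were lower (2.93% of all genes tested were). DESeq2 gave 3 such members beside 5.98% of all genes, and limma-voom 8 beside 15% of all genes. The groups did not overlap for 8 members (21.1%), beside 13.4% of all genes tested. Of these, 3 were higher in sgEgfr (7.89% of members, against 5.8% of all genes) and 5 were lower (13.2% of members, against 7.6% of all genes). Without sgRosa replicate 3 the groups did not overlap for 8 members in the higher and 11 in the lower direction, and the shares of all genes were then 20.7% and 18.9%. The members' log2 fold changes ran from -1.23 to 1.54 with a median of -0.094, and 13 were positive and 25 negative. Over all genes tested the median was -0.038 and 46.3% were positive. A further 9 members were too low for the main test, with at most 59 counts summed over the 6 libraries.

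**Figure D1:**
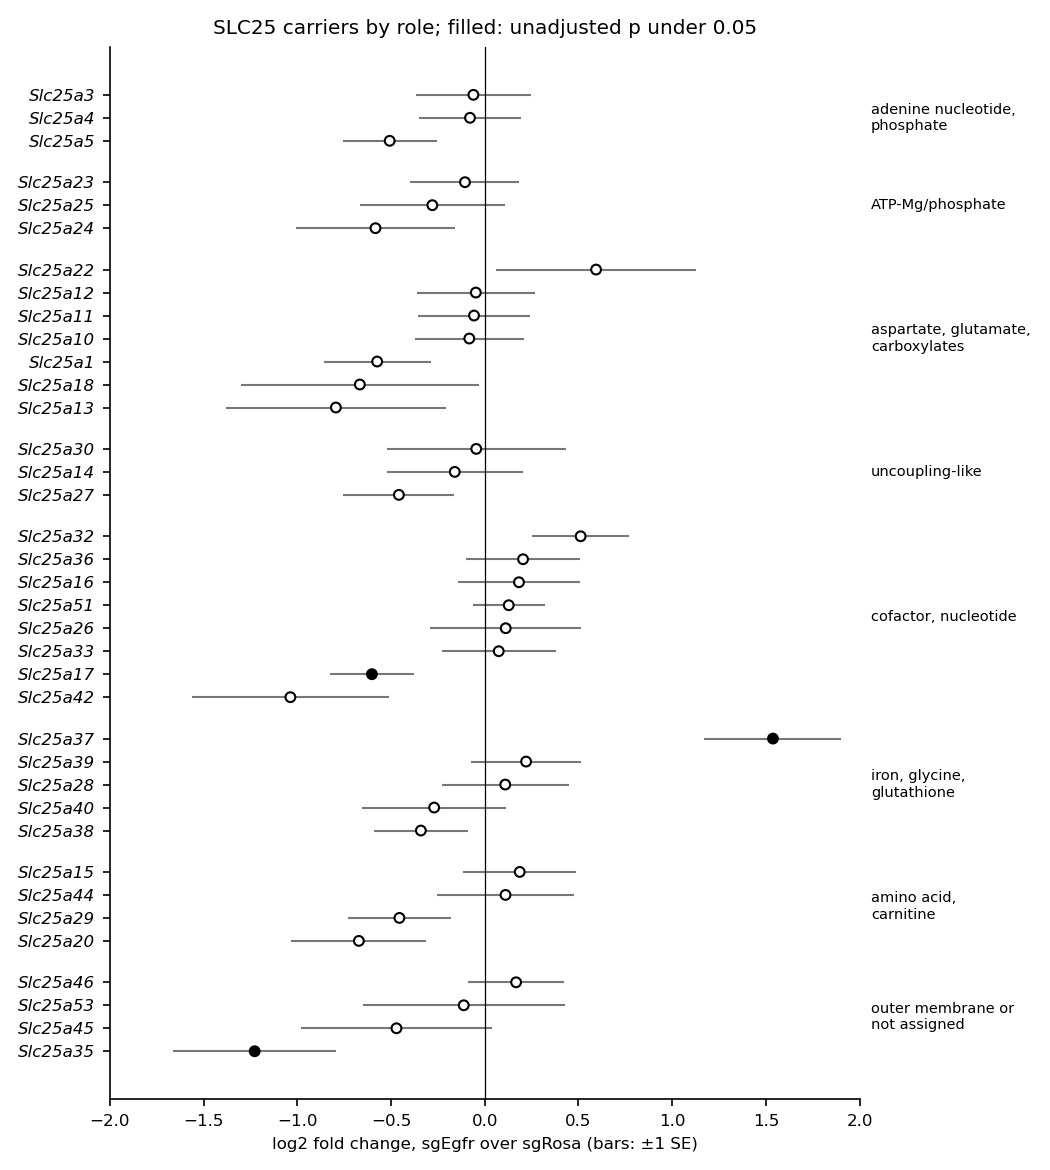
Log2 fold changes (sgEgfr over sgRosa, horizontal axis) of tested members, grouped by the substrate they carry, with bars of 1 SE. Filled points mark the 3 members at an unadjusted p under 0.05, Slc25a37 at 1.54, Slc25a17 at -0.60 and Slc25a35 at -1.23; no member passed the adjusted threshold.

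Levels were compared between members per kilobase of exon, with exon lengths from the GENCODE annotation. Over the 6 libraries Slc25a4 averaged 339 CPM per kilobase, followed by Slc25a5 at 145, Slc25a3 at 94.8, Slc25a39 at 75.6 and Slc25a11 at 34.4 CPM per kilobase. The lowest library of Slc25a4 (302) lay above the highest of Slc25a5 (197), and the lowest of Slc25a39 (50.7) lay above the highest of Slc25a11 (48.4). Slc25a5, Slc25a3 and Slc25a39 overlapped their neighbours in this order. The 3 carriers of ADP/ATP and phosphate took 44.8% to 47.3% of the family's counts in sgEgfr and 43.9% to 51.5% in sgRosa. The summed level of all 47 members was 1977 to 2205 CPM in the sgEgfr libraries and 2007 to 2573 CPM in the sgRosa libraries, and these ranges overlapped. Among the 27 members with a mean of at least 10 CPM, the highest library was a median of 1.95 times the lowest, beside 2.04 times for the 9407 genes at that level. The steadiest of them was Slc25a51, the mitochondrial NAD carrier gene, at 1.20 times, and the most variable was Slc25a37 at 5.08 times.

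**Figure D2:**
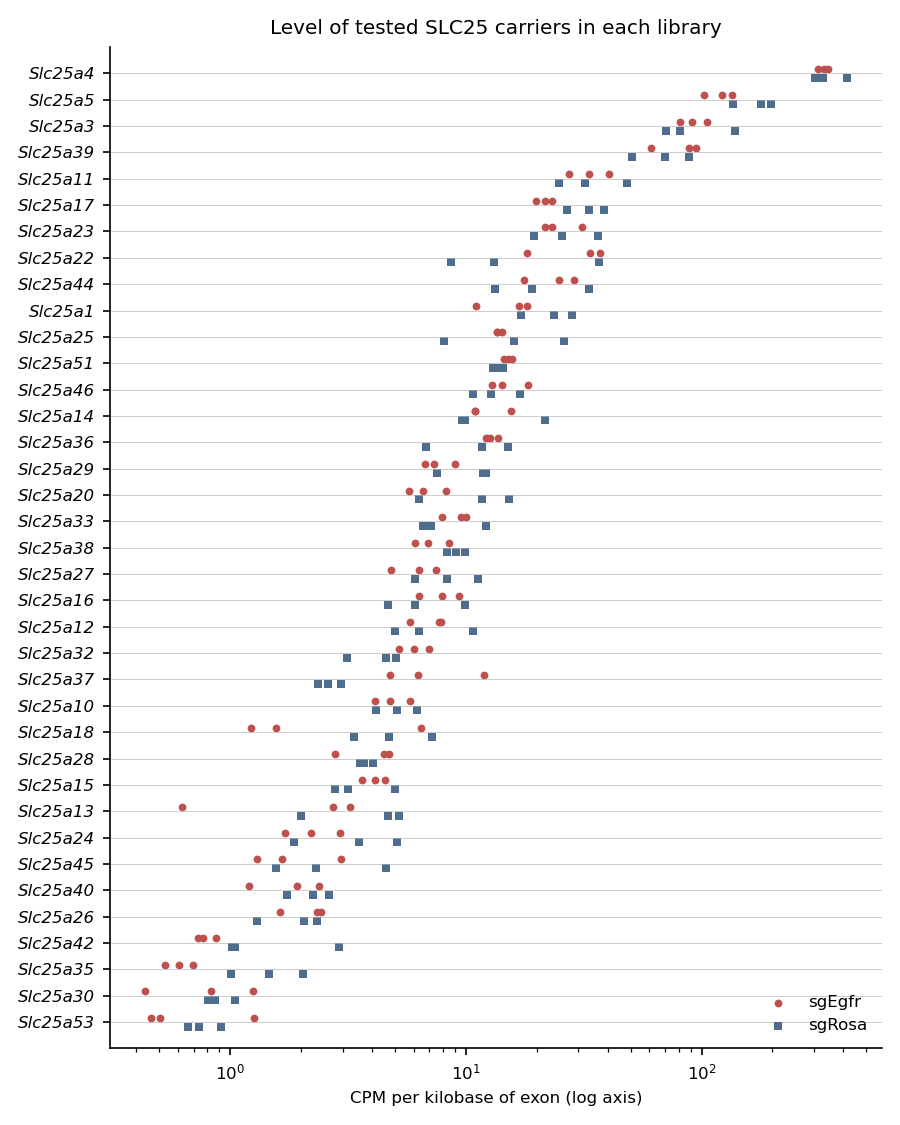
CPM per kilobase of exon (log axis) of tested members in each library, with sgEgfr as circles above sgRosa as squares and members ordered by their mean. Slc25a4 lies above all other members in every library, and the 6 values of most members overlap between the groups.

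The adenine nucleotide carriers exchange cytosolic ADP for ATP made in the matrix. Slc25a4 (chromosome 8, 46207168 to 46211062, minus strand, mm10), the form typical of heart, muscle and brain, had 662, 601 and 639 CPM in the sgEgfr libraries, against 631, 581 and 797 CPM in the sgRosa libraries. The values of the groups overlapped, and only sgRosa replicate 3 stood above the rest. Its log2 fold change was -0.079 (SE 0.27, 95% interval -0.70 to 0.55). Slc25a5 (chromosome X, 36795597 to 36798808, plus strand), the more widely expressed form, had 168, 127 and 152 CPM in the sgEgfr libraries, against 244, 169 and 221 CPM in the sgRosa libraries. Each sgEgfr library lay below each sgRosa library, though sgEgfr replicate 1 and sgRosa replicate 2 were almost level. This gave a log2 fold change of -0.51 (SE 0.25, edgeR adjusted p = 0.781). Without a filter on low counts, which changes the scaling, the groups of Slc25a5 overlapped. Its reads were also harder to assign than those of Slc25a4: 33.8% of the 50-base stretches of its annotated transcripts occurred in other genes, Gm5560 first among them, against 0% for Slc25a4. The labels do not say how the counting treated such reads.

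The coding sequences of these 2 genes have 897 bases each and are identical at 77.5% of positions, with a longest identical run of 20 bases. That run is shown within coding bases 302 to 361 (GENCODE transcripts, capitals mark the 15 bases that differ), because it is the longest that the 2 aligned coding sequences share.
Slc25a4: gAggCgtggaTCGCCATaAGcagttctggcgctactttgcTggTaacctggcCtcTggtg
Slc25a5: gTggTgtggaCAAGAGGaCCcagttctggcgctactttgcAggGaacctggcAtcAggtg

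Within each library the log2 ratio of Slc25a4 to Slc25a5 counts does not depend on the scaling of the library. It was 1.98, 2.25 and 2.07 in the sgEgfr libraries, against 1.37, 1.78 and 1.85 in the sgRosa libraries. All 3 sgEgfr libraries had the higher ratio, by 0.43 on average (SE 0.17) and by 0.28 without sgRosa replicate 1. By an exact two-sided permutation test over the libraries p was 0.1, the smallest that 3 against 3 can give, and 0.4 after adjustment over 8 pairs of carriers. The phosphate carrier gene Slc25a3, which brings in the phosphate for ATP synthesis, had 178, 158 and 206 CPM in the sgEgfr libraries, against 158, 138 and 269 CPM in the sgRosa libraries. Its groups overlapped, with a log2 fold change of -0.061 (SE 0.31) that became positive without sgRosa replicate 3. The germ-cell form Slc25a31 had 1 count in sgEgfr replicate 2 and 1 in sgRosa replicate 3, and none in the other libraries.

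The ATP-Mg/phosphate carriers adjust the total pool of adenine nucleotides in the matrix in response to calcium. Slc25a23 had 104, 77.7 and 72.5 CPM in the sgEgfr libraries, against 85.8, 65.6 and 122 CPM in the sgRosa libraries, and its groups overlapped. Slc25a25 had 55.7, 55.8 and 58.4 CPM in the sgEgfr libraries, against 33.2, 108 and 65.7 CPM in the sgRosa libraries. The sgEgfr libraries were nearly level, while sgRosa held both the lowest and the highest library. The log2 fold change of Slc25a25 was -0.28 (SE 0.39) with all libraries and 0.24 without sgRosa replicate 2. Exons of Slc25a25 overlap those of Naif1 on the opposite strand over 379 bases, so that reads there cannot be assigned without a known strand setting. Slc25a24, the third gene of this kind, averaged 7.82 ± 2.10 CPM in sgEgfr and 11.98 ± 5.52 CPM in sgRosa (SD, n = 3 each), and Slc25a41 had 1 count in all.

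Carriers of aspartate, glutamate and carboxylic acids feed the malate-aspartate shuttle and the citrate export used for lipid synthesis. Of the 7 tested, 0 passed, and 1 had a positive and 6 a negative log2 fold change. The neuronal aspartate/glutamate carrier gene Slc25a12 (aralar) had 49.1, 36.8 and 49.9 CPM in the sgEgfr libraries, against 31.8, 40.1 and 67.8 CPM in the sgRosa libraries. These groups overlapped, with a log2 fold change of -0.048 (SE 0.31) that was positive without sgRosa replicate 3. The second aspartate/glutamate carrier gene, Slc25a13 (citrin), had 8.53, 10.04 and 1.95 CPM in the sgEgfr libraries, against 16.3, 14.6 and 6.21 CPM in the sgRosa libraries. Its lowest value, in sgEgfr replicate 3, rested on 5 counts. Its values ranked in the order of their oligodendrocyte marker sums, which were 39518, 57947 and 22648 CPM in sgEgfr replicates 1, 2 and 3, against 72656, 65733 and 24623 CPM in sgRosa replicates 1, 2 and 3. The part of these cells in the level of Slc25a13 was not tested. Its log2 fold change was -0.79 (SE 0.59).

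Of the glutamate carriers, Slc25a22 had 97.5, 52.7 and 107 CPM in the sgEgfr libraries, against 25.03, 38.01 and 106 CPM in the sgRosa libraries. It was high in sgEgfr replicates 1 and 3 and in sgRosa replicate 3, the libraries with the highest pan-neuronal marker sums. These sums were 4252, 3044 and 4756 CPM in sgEgfr replicates 1, 2 and 3, against 2165, 1959 and 4842 CPM in sgRosa replicates 1, 2 and 3. The log2 fold change of Slc25a22 was 0.59 (SE 0.53). It was 0.27 without sgRosa replicate 1, 0.90 without sgEgfr replicate 2, 1.45 without sgRosa replicate 3 and 1.35 without both libraries rich in choroid plexus markers. Limma-voom gave 1.19, and once the mean pan-neuronal level was added as a covariate, it was -0.079. Slc25a18, the glutamate carrier gene typical of astrocytes, had 2.99, 12.3 and 2.34 CPM in the sgEgfr libraries, against 8.999, 13.8 and 6.39 CPM in the sgRosa libraries. Its value in sgEgfr replicate 3 rested on 6 counts. It was highest in sgEgfr replicate 2 and sgRosa replicate 2, the libraries with the highest sums of 10 astrocyte markers. In sgEgfr replicates 1, 2 and 3 these sums were 1126, 1648 and 464 CPM. Those of sgRosa replicates 1, 2 and 3 were 899, 1544 and 827 CPM. The orders differed elsewhere: sgEgfr replicate 1 had a higher sum than sgRosa replicates 1 and 3 but less Slc25a18. The log2 fold change of Slc25a18, -0.67 (SE 0.64), was -1.80 without sgEgfr replicate 2.

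**Figure D3:**
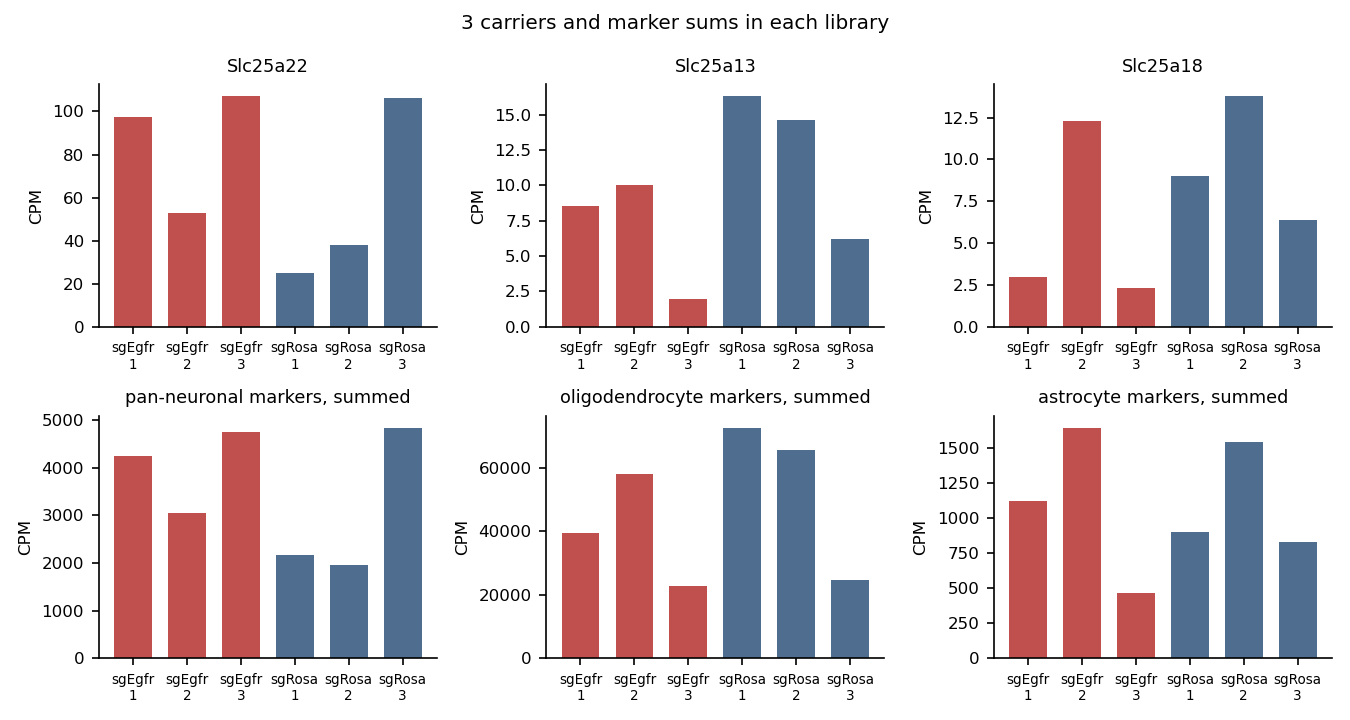
CPM of Slc25a22, Slc25a13 and Slc25a18 in each library (upper row) over the summed CPM of pan-neuronal, oligodendrocyte and astrocyte markers (lower row). Slc25a13 follows the order of the oligodendrocyte sums in all 6 libraries; these carriers were chosen after their values were seen.

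The citrate carrier gene Slc25a1 had 30.3, 27.9 and 18.3 CPM in the sgEgfr libraries, against 39.4, 46.8 and 28.5 CPM in the sgRosa libraries. Only sgEgfr replicate 1 reached into the sgRosa range, and the log2 fold change was -0.57 (SE 0.29, edgeR adjusted p = 0.781). The oxoglutarate/malate carrier gene Slc25a11, which works with Slc25a12 in the shuttle, had 57.2, 47.1 and 69.4 CPM in the sgEgfr libraries, against 42.5, 54.7 and 82.8 CPM in the sgRosa libraries. Its groups overlapped. The dicarboxylate carrier gene Slc25a10 averaged 9.87 ± 1.70 CPM in sgEgfr and 10.4 ± 2.05 CPM in sgRosa (SD, n = 3 each). Slc25a21, a carrier gene for oxoadipate, had at most 5 counts in a library.

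The 3 carriers related to uncoupling proteins all had negative log2 fold changes, and 0 of them passed. Slc25a27, a brain form, had 18.98, 29.5 and 24.9 CPM in the sgEgfr libraries, against 44.4, 32.6 and 24.03 CPM in the sgRosa libraries, with a log2 fold change of -0.46 (SE 0.30) and groups that overlapped. Slc25a14, another form of the nervous system, had 19.8, 19.9 and 28.1 CPM in the sgEgfr libraries, against 18.00, 17.5 and 39.2 CPM in the sgRosa libraries. It was highest in sgRosa replicate 3, and its log2 fold change was -0.16 with all libraries and 0.33 without that one. Slc25a30 averaged 3.002 ± 1.45 CPM in sgEgfr and 3.24 ± 0.458 CPM in sgRosa (SD, n = 3 each), on at most 32 counts in a library.

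Among the 9 tested carriers of cofactors and nucleotides 6 had positive and 3 negative log2 fold changes. The groups did not overlap for 5 of them, 2 higher and 3 lower in sgEgfr. Over all genes tested 5.8% were higher and 7.6% lower with no overlap, and the class was not tested against these shares. Slc25a17 (chromosome 15, 81318921 to 81360765, minus strand), whose protein sits in the peroxisome and carries coenzyme A, FAD and NAD, had 40.1, 34.4 and 37.4 CPM in the sgEgfr libraries, against 57.7, 66.4 and 46.1 CPM in the sgRosa libraries. The highest sgEgfr library lay below the lowest sgRosa library. The log2 fold change was -0.60 (SE 0.22, unadjusted p = 0.0274 and adjusted p = 0.781 by edgeR), and it was negative in all 17 alternative analyses, with an unadjusted p under 0.05 in 11 of them. Slc25a32, the carrier gene of folate and FAD, had 41.2, 30.6 and 35.5 CPM in the sgEgfr libraries, against 29.8, 27.1 and 18.5 CPM in the sgRosa libraries. It was separated upward, with a log2 fold change of 0.51 (SE 0.26, edgeR adjusted p = 0.781). The groups also did not overlap under the other scalings and filters. Leaving out libraries could undo a separation only through rescaling, so those alternatives are no support for it. The oligodendrocyte sums given above were lower in each sgEgfr library than in sgRosa replicates 1 and 2, and sgRosa replicate 3 was lower than sgEgfr replicates 1 and 2. The part of these cells in the level of Slc25a17 was not tested.

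Slc25a42, which carries coenzyme A into the matrix, had 2.77, 2.45 and 2.34 CPM in the sgEgfr libraries, against 9.28, 3.34 and 3.24 CPM in the sgRosa libraries. It was separated downward on low counts, 13, 11 and 6 in the sgEgfr libraries, against 33, 8 and 36 in the sgRosa libraries. Of these, sgRosa replicate 1 alone held most of the difference in CPM, and the log2 fold change of -1.04 (SE 0.53) was -0.34 without that library. The NAD carrier gene Slc25a51 had 67.2, 69.6 and 64.3 CPM in the sgEgfr libraries, against 63.6, 58.1 and 62.4 CPM in the sgRosa libraries. It was separated upward by a narrow margin. Its groups overlapped under the other scalings, the stricter filter and DESeq2, and without sgEgfr replicate 2 or sgRosa replicate 2. The pyrimidine nucleotide carrier gene Slc25a36 had 64.4, 72.3 and 67.02 CPM in the sgEgfr libraries, against 61.9, 79.8 and 35.8 CPM in the sgRosa libraries, and sgRosa replicate 3 was the only low library. Its partner Slc25a33 had 18.98, 14.95 and 17.9 CPM in the sgEgfr libraries, against 12.4, 13.4 and 22.95 CPM in the sgRosa libraries, and there sgRosa replicate 3 was the highest. Both pairs of groups overlapped. The ratio of Slc25a36 to Slc25a33 was on the log2 scale 1.76, 2.27 and 1.89 in sgEgfr, against 2.31, 2.56 and 0.64 in sgRosa. Exons of Slc25a33 overlap those of Gm13068 on the opposite strand over 281 bases. Slc25a16, a gene linked to coenzyme A import, averaged 24.7 ± 4.79 CPM in sgEgfr and 21.6 ± 8.48 CPM in sgRosa (SD, n = 3 each). Slc25a26, the carrier gene of S-adenosylmethionine, averaged 4.09 ± 0.845 CPM in sgEgfr and 3.65 ± 1.03 CPM in sgRosa (SD, n = 3 each).

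Iron enters the matrix through the mitoferrins for the making of heme and of iron-sulfur clusters. Mitoferrin 1 is the form of developing red blood cells and mitoferrin 2 the widely expressed one. Slc25a37 (chromosome 14, 69241848 to 69285544, minus strand) had 123, 224 and 51 counts in sgEgfr replicates 1, 2 and 3, against 35, 26 and 137 counts in sgRosa replicates 1, 2 and 3. This came to 26.2, 49.98 and 19.9 CPM in the sgEgfr libraries, against 9.84, 10.9 and 12.3 CPM in the sgRosa libraries. The sgRosa libraries were close to each other, while the sgEgfr libraries differed among themselves and sgEgfr replicate 2 was by far the highest. The log2 fold change was 1.54 (SE 0.37, 95% interval 0.69 to 2.39). By edgeR its unadjusted p was 0.00325, which ranked 22 among the 13159 genes tested, and its adjusted p was 0.781. Over the alternatives the log2 fold change ranged from 1.09 without sgEgfr replicate 2 to 1.81 without sgEgfr replicate 3, the unadjusted p was under 0.05 in 17 of 17, and the adjusted p ranged from 0.0747 (DESeq2) to 0.999.

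Slc25a28 (chromosome 19, 43663801 to 43675006, minus strand) had 7.25, 6.92 and 4.29 CPM in the sgEgfr libraries, against 6.19, 5.43 and 5.67 CPM in the sgRosa libraries. The groups overlapped, with sgEgfr holding both the highest and the lowest library, and the log2 fold change was 0.11 (SE 0.34). The log2 ratio of Slc25a28 to Slc25a37 counts was -1.84, -2.83 and -2.16 in the sgEgfr libraries, against -0.66, -0.97 and -1.11 in the sgRosa libraries. All sgEgfr libraries thus had more mitoferrin 1 reads for each mitoferrin 2 read. The difference was -1.36 (SE 0.32), with an exact two-sided permutation p of 0.1 (the smallest that can be reached) and 0.4 adjusted over the 8 pairs. The coding sequences of the 2 genes are identical at 72.4% of aligned positions, with no identical run over 15 bases. The stretch around that run is shown, coding bases 587 to 646 of Slc25a37 and 668 to 727 of Slc25a28. It was picked for that run and not for the fewest differences, and capitals mark the 10 bases that differ.
Slc25a37: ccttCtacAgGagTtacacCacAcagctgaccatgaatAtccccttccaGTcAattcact
Slc25a28: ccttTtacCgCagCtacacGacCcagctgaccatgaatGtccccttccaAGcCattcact

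Markers of red blood cells were set beside Slc25a37. All 6 had positive log2 fold changes, as had 46.3% of all genes tested, and none was at 0 in any library. At an unadjusted p under 0.05 by edgeR 3 of them were higher, beside 3.23% of all genes tested. The hemoglobin genes among the markers were each highest in sgEgfr replicate 2, so they did not vary separately. Slc4a1 was highest in sgRosa replicate 2 (6.27 CPM), with a log2 fold change of 0.58 (SE 0.61). The summed level of the 6 markers was 1363, 4053 and 589 CPM in sgEgfr replicates 1, 2 and 3, against 1071, 409 and 407 CPM in sgRosa replicates 1, 2 and 3. Alas2, the erythroid enzyme that starts heme synthesis, had 77.0, 210.4 and 30.8 CPM in the sgEgfr libraries, against 25.03, 15.5 and 19.4 CPM in the sgRosa libraries. It was highest in the library where Slc25a37 was highest. By edgeR its log2 fold change was 2.41 (SE 0.63, adjusted p = 0.781). Alas2 was higher in each sgEgfr library than in each sgRosa library, while the erythroid sums of the groups overlapped. The 9 tested microglial markers were all positive as well, with sums over 10 markers of 38.2 to 531 CPM in sgEgfr and 72.8 to 183 CPM in sgRosa. The highest microglial sum was that of sgEgfr replicate 2 and the lowest that of sgEgfr replicate 3. The erythroid sum of sgRosa replicate 1, where Slc25a37 was lowest, was above that of sgEgfr replicate 3. The part of either cell type in the level of Slc25a37 was not tested. Exons of Slc25a37 overlap those of 2 genes on the opposite strand over 473 bases, and reads there cannot be assigned without the strand setting. Counting either strand, 6.99% of the 50-base stretches of Slc25a37 transcripts occur in 5 other genes, Gm16867 first among them.

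**Figure D4:**
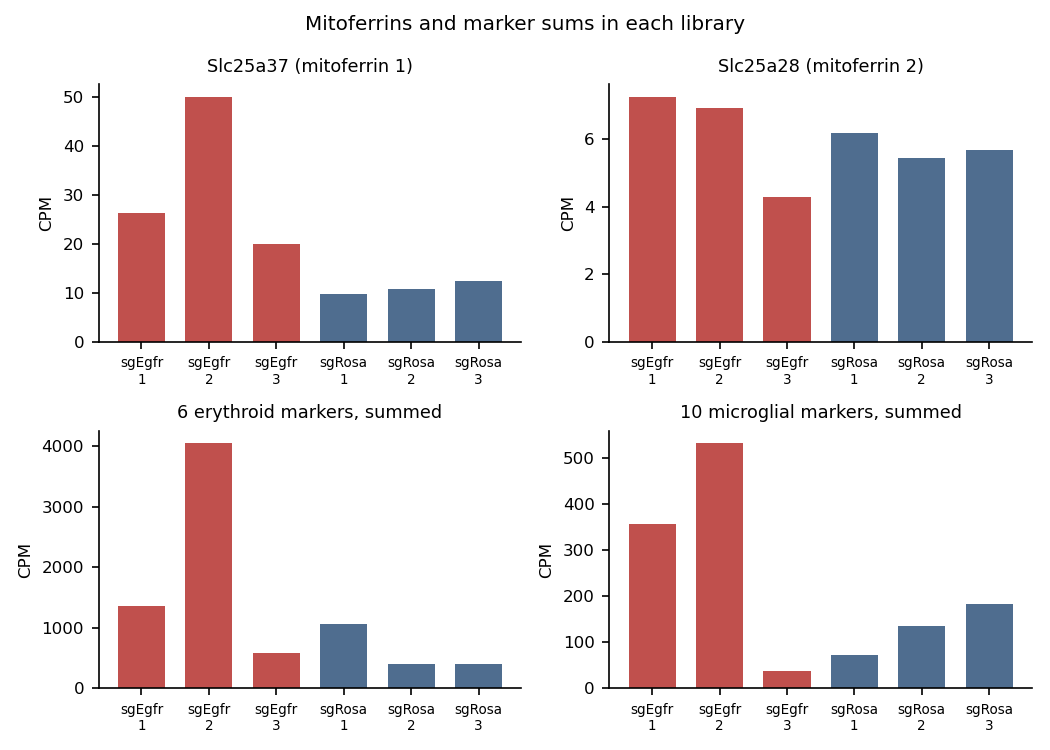
CPM of the 2 mitoferrin genes (upper row) and summed CPM of erythroid and microglial markers (lower row) in each library. Slc25a37 is at 19.9 to 49.98 CPM in sgEgfr and 9.84 to 12.3 CPM in sgRosa. Slc25a37, the erythroid sum and the microglial sum all peak in sgEgfr replicate 2.

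The other carriers of this class serve glutathione and heme. Slc25a39, a glutathione carrier gene, had 149.7, 159 and 103 CPM in the sgEgfr libraries, against 85.5, 118 and 149 CPM in the sgRosa libraries. Its close relative Slc25a40 had 5.33, 3.35 and 6.62 CPM in the sgEgfr libraries, against 7.31, 6.27 and 4.86 CPM in the sgRosa libraries. Neither pair of groups was separated, and their log2 fold changes were 0.22 (SE 0.29) and -0.27 (SE 0.39). Slc25a38, which brings glycine into the matrix for heme synthesis, averaged 12.8 ± 2.17 CPM in sgEgfr and 16.3 ± 1.39 CPM in sgRosa (SD, n = 3 each). Thus 0 of the 5 carriers for iron, glycine and glutathione passed, with 3 positive and 2 negative log2 fold changes.

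Of the carriers of amino acids and carnitine, 4 were tested and 0 passed. Slc25a44, the carrier gene of branched-chain amino acids, had 103, 63.1 and 89.2 CPM in the sgEgfr libraries, against 47.5, 68.5 and 119 CPM in the sgRosa libraries, and its groups overlapped. Slc25a20, which brings acylcarnitines in for fatty acid oxidation, had 14.7, 10.3 and 11.7 CPM in the sgEgfr libraries, against 20.8, 27.1 and 11.3 CPM in the sgRosa libraries. Its log2 fold change was -0.67 (SE 0.36), and sgRosa replicate 3 lay within the sgEgfr range. Slc25a29, a carrier gene of basic amino acids, had 17.7, 14.5 and 13.2 CPM in the sgEgfr libraries, against 14.9, 23.4 and 24.1 CPM in the sgRosa libraries, with a log2 fold change of -0.46 (SE 0.28). The ornithine carrier gene Slc25a15 averaged 14.1 ± 1.58 CPM in sgEgfr and 12.5 ± 4.06 CPM in sgRosa (SD, n = 3 each). The related Slc25a2 had 2, 7 and 2 counts in the sgEgfr libraries, against 0, 0 and 3 counts in the sgRosa libraries, too few for the main test. Without a filter edgeR did test it, with an unadjusted p under 0.05, beside 4.54% of all genes, and groups that did not overlap. It was not called there, and these counts lie near the floor. Slc25a48 had 1 count, in sgRosa replicate 1.

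Slc25a46, whose protein sits in the outer membrane and acts in mitochondrial dynamics, averaged 66.4 ± 12.3 CPM in sgEgfr and 58.9 ± 14.1 CPM in sgRosa (SD, n = 3 each). Slc25a35 (chromosome 11, 68968096 to 68972516, plus strand) had 12, 10 and 5 counts in the sgEgfr libraries, against 19, 18 and 41 counts in the sgRosa libraries. This came to 2.56, 2.23 and 1.95 CPM in the sgEgfr libraries, against 5.34, 7.52 and 3.69 CPM in the sgRosa libraries. All sgEgfr libraries were lower. Its log2 fold change was -1.23 (SE 0.43, unadjusted p = 0.0228 and adjusted p = 0.781 by edgeR). Exons of Slc25a35 overlap those of Rangrf on the opposite strand over 820 bases, and 25.0% of its 50-base stretches occur in other genes. Reads from the overlap cannot be assigned to either gene without the strand setting. Its unadjusted p was under 0.05 in 10 of 16 alternatives. Slc25a45 averaged 5.34 ± 2.38 CPM in sgEgfr and 7.62 ± 4.24 CPM in sgRosa (SD, n = 3 each). Slc25a53 averaged 2.52 ± 1.53 CPM in sgEgfr and 2.62 ± 0.432 CPM in sgRosa (SD, n = 3 each). The remaining 4 genes of this class were too low for the main test: Slc25a34, Slc25a43 and Slc25a47 had at most 6, 3 and 28 counts in a library. Slc25a54 was at 0 in all 6 libraries, which allows up to 0.270 to 1.25 CPM in a library.

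Ratios of 8 pairs of related carriers were compared. The 6 pairs other than Slc25a4/Slc25a5 and Slc25a28/Slc25a37 had differences in log2 ratio between -0.38 for Slc25a27/Slc25a14 and 1.84 for Slc25a22/Slc25a18. With 1 library left out the difference of Slc25a22/Slc25a18 ranged from 1.22 without sgEgfr replicate 3 to 2.87 without sgEgfr replicate 2. That of Slc25a12/Slc25a13 was 1.03 with all libraries, and ranged from 0.24 without sgEgfr replicate 3 to 1.77 without sgRosa replicate 3. That of Slc25a39/Slc25a40 was 0.53, and ranged from 0.14 without sgEgfr replicate 2 to 0.94 without sgEgfr replicate 3. The groups of these 6 pairs overlapped, and the exact permutation p lay between 0.2 and 1.

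**Figure D5:**
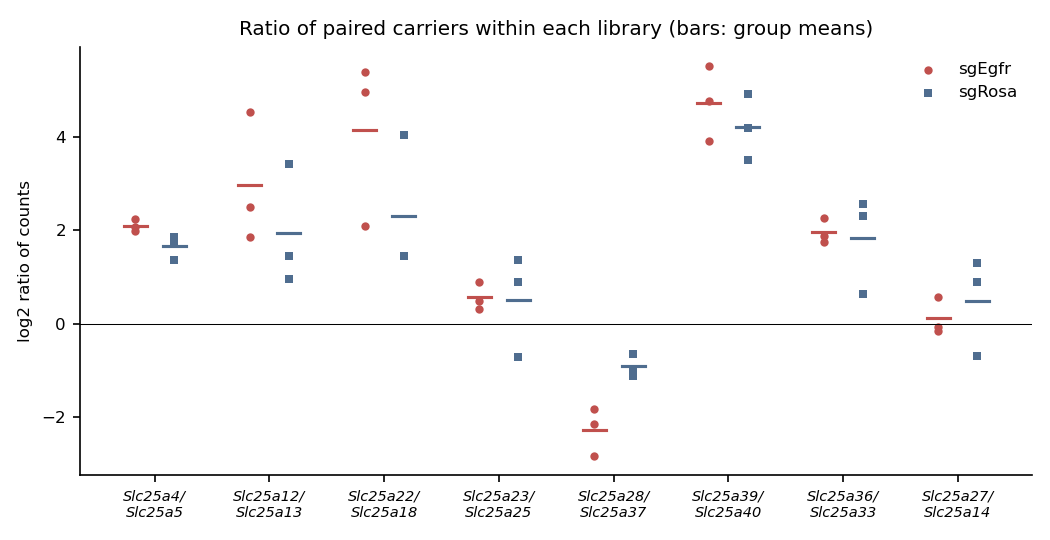
Log2 ratio of the counts of 8 pairs of related carriers within each library (vertical axis), with sgEgfr left of sgRosa and short bars at the group means. Slc25a4/Slc25a5 and Slc25a28/Slc25a37 are the pairs whose groups do not overlap; both have an exact permutation p of 0.1, the smallest possible here.

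Of 5 family members known under other symbols, Ucp1 was listed at 0 in every library, Ucp3 reached at most 0.844 CPM, and none of the 3 tested genes (Mtch1, Mtch2 and Ucp2) passed. The enzymes of the malate-aspartate and glycerol phosphate shuttles, which work with the carboxylate carriers, had 3 positive and 3 negative log2 fold changes among 6, with a median of 0.0097. The 9 tested genes of the carrier import machinery had 2 positive and 7 negative ones (median -0.074), and the 10 genes of general mitochondrial content 4 positive and 6 negative ones (median -0.11). All 14 tested nuclear ATP synthase subunits were negative, with a median of -0.29 beside -0.038 over all genes. The lowest p among these was that of Atp5e, at 35.0, 31.5 and 27.7 CPM in the sgEgfr libraries, against 59.3, 38.01 and 48.5 CPM in the sgRosa libraries. Of the pyruvate carrier and the outer membrane channels, 1 was positive and 4 negative, and Mpc1, a subunit of the mitochondrial pyruvate carrier, had 41.2, 48.4 and 42.5 CPM in the sgEgfr libraries, against 70.6, 57.2 and 62.6 CPM in the sgRosa libraries. Each sgEgfr value of both genes was below each sgRosa value. By edgeR the log2 fold changes were -0.63 (SE 0.24) for Atp5e and -0.53 (SE 0.21) for Mpc1, with an adjusted p of 0.781 for both. In these lists 0 genes passed.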

How the data were processed

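RNA of neuron-enriched amygdala cells was sequenced in 3 sgEgfr and 3 sgRosa libraries. The deposited values are raw read counts per gene. The submitters' processing notes name fastp 0.23.2, FastQC 0.11.9, MultiQC 1.11, STAR 2.7.5c, featureCounts 2.0.1 and edgeR 3.42.4; of the counting, neither annotation nor strand setting nor treatment of multi-mapping reads is given in the sources used here. The series table held the same counts as the 6 single tables, and 3 further columns of it were not used. The members, the gene lists and the tests were chosen with earlier results of these data known.

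Genes were kept by filterByExpr (minimum count 10, minimum total 15), scaled by TMM and tested with edgeR 4.0.16 (R 4.3.3) in its quasi-likelihood test of sgEgfr over sgRosa, with Benjamini-Hochberg adjustment over 13159 genes at 0.05. CPM are scaled by TMM. Pair ratios used counts plus 0.5 and an exact two-sided permutation test. The procedure was tested on simulated data. The result of 1 member is counted but neither reported nor drawn here. Members named with a fold change were chosen by a rule on p, abundance and pairs (26 members); the other 12 tested ones had log2 fold changes from -0.58 to 0.19 and p of at least 0.206. Positions are from RefSeq (GRCm38, mm10), sequences and exon lengths from GENCODE transcripts. Alternatives were other scalings and filters, DESeq2 1.42.0, limma 3.58.1 voom with quality weights, a legacy quasi-likelihood fit added after seeing the data, a replicate block, a pan-neuronal covariate, and libraries left out. The labels do not say that libraries came from separate animals, so the spread behind each p-value is that between libraries and may be technical. Between any 2 libraries chi-square per degree of freedom was at least 9.53, so none was a copy of another.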

Additional observations from a re-analysis of the deposited data

How the results depend on the processing

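No member passed the adjusted threshold in any of the analyses tried by edgeR, DESeq2 or limma-voom, though DESeq2 gave some members no adjusted p. Of all genes, DESeq2 called 31 higher and 2 lower, against 0 by edgeR. Of 440 values of the named members under alternatives, 410 kept their sign and 30 were reversed; the cause was not tested. Members at an unadjusted p under 0.05 numbered 8 with limma-voom (15% of all genes tested), 6 with the replicate block (10.001% of all genes), 5 with the pan-neuronal covariate (11.7%) and 7 without both choroid plexus libraries (11.9%). With 1 library left out they numbered 1 to 9, the 9 without sgRosa replicate 3 beside 20.4% of all genes. Members lower in sgEgfr with no overlap numbered 3 of 33 with the stricter filter, which tested fewer genes, beside 6.53% of all genes. Without both choroid plexus libraries 9 of 37 members were higher and 12 lower with no overlap, beside 24.7% and 23.0% of all genes. With 1 library left out the members numbered 3 to 8 and 5 to 11. The shares of all genes then ranged from 8.48% to 20.7% and from 9.16% to 18.9%. The median log2 fold change was -0.19 with the covariate, -0.017 without the choroid plexus libraries, and -0.18 to -0.015 with 1 library left out.

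Reversed with limma-voom were Slc25a3 (0.27), Slc25a4 (0.086), Slc25a12 (0.21), Slc25a14 (0.074), Slc25a23 (0.27) and Slc25a36 (-0.066). With the replicate block Slc25a12 was at 0.017, and with the covariate Slc25a22 was at -0.079, Slc25a33 at -0.24 and Slc25a44 at -0.32. Without the choroid plexus libraries Slc25a3 was at 0.30, Slc25a4 at 0.039, Slc25a12 at 0.28, Slc25a14 at 0.43, Slc25a28 at -0.026 and Slc25a36 at -0.017. With 1 library left out the log2 fold change ranged from -0.20 to 0.28 for Slc25a3, -0.14 to 0.061 for Slc25a4, -0.24 to 0.33 for Slc25a12, -0.33 to 0.33 for Slc25a14, -0.28 to 0.16 for Slc25a23, -0.60 to 0.24 for Slc25a25, -0.024 to 0.32 for Slc25a28, -0.068 to 0.42 for Slc25a33, -0.060 to 0.49 for Slc25a36 and -0.12 to 0.55 for Slc25a44. The difference in log2 ratio then ranged from -0.57 to 0.47 for Slc25a23/Slc25a25, -0.46 to 0.50 for Slc25a36/Slc25a33 and -0.98 to 0.020 for Slc25a27/Slc25a14.

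Same-numbered libraries had deviations correlated at -0.031, 0.48 and 0.28, and 4 of 6 libraries correlated best with their own number. These values do not settle whether the replicate numbers pair the samples. The labels do not say so either, and the main test did not pair them. The block left 0 members called, with a smallest edgeR adjusted p over all genes of 0.203, beside 0.781 in the main test. With 3 libraries a group, a coefficient of variation of 0.355 between replicates and totals down to 2348897 counts, the median standard error of a member was 0.31 on the log2 scale. A permutation over 3 against 3, or with 1 library left out, cannot give a p under 0.1.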
